A study of Mus musculus with 24 samples.

Results

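The effect of a high fat diet on the colon of ovary-intact female mice was described on 8 of the 24 arrays of the series, the 4 of F + HFD and the 4 of F + LFD, which were chosen by their diet and surgery labels. The animals were C57BL/6J mice bought at 7 weeks of age, and the F groups kept their ovaries and had sham surgery. All of them, the LFD controls included, were injected with azoxymethane (AOM, 10 mg/kg), which is carcinogenic in the colon, and then drank 1.5% dextran sulfate sodium (DSS), which injures its lining, in 3 cycles. F + LFD received a diet with 10% and F + HFD a diet with 45% of its calories as fat, for 14 weeks. No untreated animals were included, so both diets were compared within colitis-associated carcinogenesis. RNA came from pieces of distal colon, which hold epithelium, immune cells, nerves and muscle together, with 1 array per sample. Animals near the average body weight of their group had been picked for the arrays. The comparison asked which colon genes differed with dietary fat when the ovaries were present.

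The colon lining renews itself from stem cells at the crypt base, and after DSS injury it is repaired under signals from immune cells and from the tissue below. Cells that receive a growth factor, cytokine or stress signal switch on immediate-early genes such as Fos and Egr1 within minutes, without making new protein first, and chemokines such as Ccl2 then draw monocytes and other white cells into the tissue. Below the lining lie smooth muscle and the enteric nervous system with its glia, and within the lining sit enteroendocrine cells, which release gut hormones.

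The share of probes well above background ran from 43.6% to 58.5% over the 8 arrays and was lowest on F + HFD replicate 2. No spot was saturated. The 6 epithelial markers Epcam, Krt8, Krt18, Krt20, Vil1 and Cdh1 were well above background on all 8 arrays, and their log2 fold changes lay between -0.15 and 0.09. Same-numbered arrays of the 2 diets, for example F + LFD replicate 1 and F + HFD replicate 1, lay in the same column of the slide, and their deviations from the group means went together (r from 0.23 to 0.51 over genes). Between other numbers r ran from -0.55 to 0.37, and 5 of the 8 arrays correlated best with their own number. Same-numbered arrays are called pairs below for their shared column, and a fit with the replicate number as a block compares the diets within them. On the slide, LFD lay in row 1 and HFD in row 2, so that diet and row cannot be told apart. In each of the 4 pairs the HFD array was dimmer, the 75th percentile of its signal being 0.583, 0.439, 0.846 and 0.906 of that of the LFD array.

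Of 22085 genes tested, 264 (1.2%) were differentially expressed genes (DEGs) between F + HFD and F + LFD, which here means a difference of 1.5-fold or more with a limma p under 0.05 before adjustment. The up-regulated DEGs numbered 88 (0.398%) and the down-regulated DEGs 176 (0.797%). No gene passed after Benjamini-Hochberg adjustment, where the smallest adjusted p by limma was 0.992, and 633 genes (2.87%) had an unadjusted p under 0.05 against 1104 if p-values were spread evenly. By the methods' t-test 125 genes (0.566%) were DEGs, and none passed adjustment either. With the replicate number as a block, 588 genes (2.66%) were DEGs, 216 up (0.978%) and 372 down (1.68%), of which 248 were DEGs in both fits, and the smallest adjusted p was 0.665. Every gene named below is therefore a candidate at an unadjusted threshold. Many were named because their diets did not overlap or their p was small, so these same values are no separate support for them. "DEG" refers to the fit without the block unless the block is named. The 146 DEGs well above background on all 8 arrays were 74 up and 72 down, a selection that a gene can miss because its signal fell. Of the other DEGs, 17 were well above background on all 4 F + LFD arrays and on no F + HFD array, and 0 the other way round. The dimmer HFD arrays run the same way, and their part in this was not tested. The count rose to 650, 468, 648 and 490 without F + LFD replicates 2 and 3 and F + HFD replicates 3 and 4, and dropped to 148 without F + LFD replicate 4 and to 173 without F + HFD replicate 2.

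**Figure D1:**
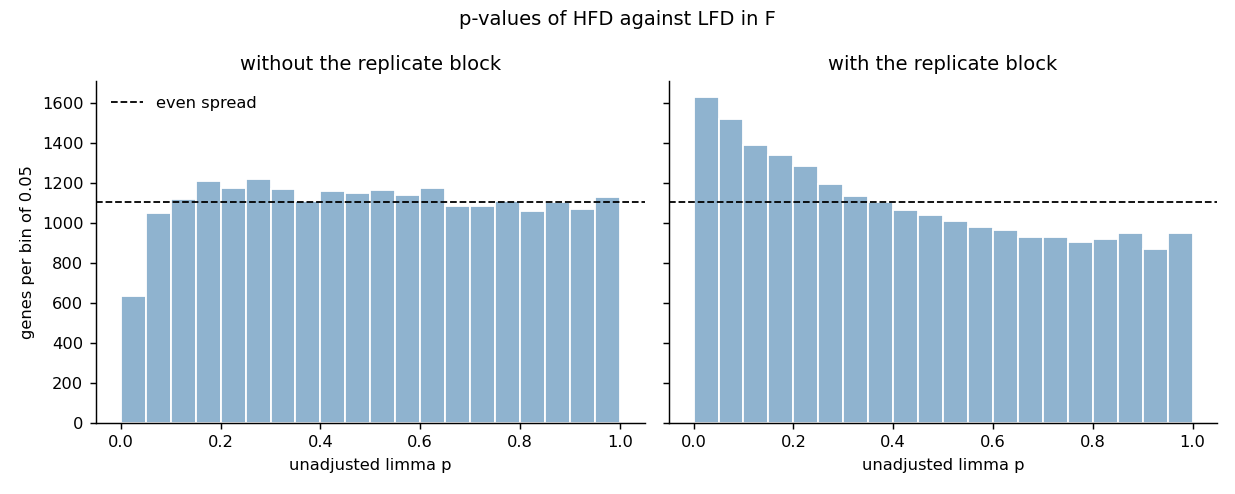
Histograms of the unadjusted limma p-values of F + HFD against F + LFD over 22085 genes, in bins of 0.05, without (left) and with (right) the replicate number as a block. The dashed line marks an even spread, and the lowest bin holds 633 genes on the left and 1626 (7.36%) on the right.

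Immediate-early genes were lower in F + HFD. Of 24 listed genes 23 were tested, and 22 of the 23 had a lower mean in F + HFD, where 50.6% of all genes tested did. The median log2 fold change of the list was -0.41, against -0.0032 over all genes. As many as 7 were down-regulated DEGs (Btg2, Ccn1, Egr1, Fos, Nr4a1, Socs3 and Zfp36) and none was up-regulated, and with the block all of these but Nr4a1 were DEGs. The score of an array, the median of the list after each gene was centred on the 8 arrays, lay between 0.04 and 0.34 on F + LFD arrays and between -0.28 and -0.02 on F + HFD arrays, so that the diets did not overlap. The HFD minus LFD score was -0.56, -0.36, -0.55 and -0.06 in pairs 1 to 4. HFD was lower in all 4 pairs for 6.88% and higher in all 4 for 9.67% of all genes tested. The median stayed between -0.47 and -0.32 under all 15 alternatives tried.

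Promoter motifs were counted for the immediate-early list, whether its members were called or not. The counts describe the list and not the diet difference. RefSeq promoter windows (GRCm38.p6) were at hand for 20 of the 23 tested genes, and the 250 bases before the start were searched on both strands for TGACG, the core of the cAMP response element, and for the CArG box, the site of serum response factor. TGACG also lies inside the full element TGACGTCA, which then counts on both strands. At least 1 TGACG lay in the windows of 13 of the 20 genes (65%), against 19.8% of 27025 genes with a window, 4 of them DEGs and 9 not, and a CArG box in those of 2 (10%), against 1.62%. The windows of the called genes are given 5′ to 3′ with either motif in capitals, to show how these elements are placed. Egr1 is named only.
Fos, chr12:85473640-85473889, plus strand: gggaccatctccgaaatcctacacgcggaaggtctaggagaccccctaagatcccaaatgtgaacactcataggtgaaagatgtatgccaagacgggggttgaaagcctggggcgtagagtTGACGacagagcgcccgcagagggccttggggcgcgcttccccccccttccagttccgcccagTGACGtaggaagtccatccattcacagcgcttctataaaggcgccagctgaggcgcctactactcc
Nr4a1, chr15:101266596-101266845, plus strand: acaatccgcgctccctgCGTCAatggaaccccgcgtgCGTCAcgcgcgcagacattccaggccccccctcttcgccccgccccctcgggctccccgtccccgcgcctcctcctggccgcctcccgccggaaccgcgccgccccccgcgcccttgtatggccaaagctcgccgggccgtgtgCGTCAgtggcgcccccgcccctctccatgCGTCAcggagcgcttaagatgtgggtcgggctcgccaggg
Btg2, chr1:134079156-134079405, minus strand: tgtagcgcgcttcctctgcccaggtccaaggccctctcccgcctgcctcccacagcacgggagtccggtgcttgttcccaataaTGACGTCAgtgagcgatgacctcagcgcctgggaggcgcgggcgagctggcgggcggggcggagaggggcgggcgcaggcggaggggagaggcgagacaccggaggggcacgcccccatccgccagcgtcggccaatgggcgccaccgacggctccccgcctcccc
Ccn1, chr3:145649986-145650235, minus strand: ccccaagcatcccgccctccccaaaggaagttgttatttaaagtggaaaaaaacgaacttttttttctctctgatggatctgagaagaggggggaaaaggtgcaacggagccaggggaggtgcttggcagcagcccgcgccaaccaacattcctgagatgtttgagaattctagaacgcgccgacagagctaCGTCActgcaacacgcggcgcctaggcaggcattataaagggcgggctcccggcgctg
Zfp36, chr7:28379229-28379478, minus strand: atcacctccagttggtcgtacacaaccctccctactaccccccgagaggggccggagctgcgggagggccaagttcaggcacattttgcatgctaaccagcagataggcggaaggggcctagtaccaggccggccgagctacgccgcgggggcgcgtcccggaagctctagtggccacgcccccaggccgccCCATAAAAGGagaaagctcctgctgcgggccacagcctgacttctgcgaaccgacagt
Socs3, chr11:117969367-117969616, minus strand: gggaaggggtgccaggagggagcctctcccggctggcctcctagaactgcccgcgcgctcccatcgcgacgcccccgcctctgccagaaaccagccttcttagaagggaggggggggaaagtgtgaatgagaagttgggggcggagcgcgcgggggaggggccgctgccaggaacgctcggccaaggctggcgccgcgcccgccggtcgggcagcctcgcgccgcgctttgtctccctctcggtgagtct
Fos held 2 and Nr4a1 held 4 copies of the TGACG core, Ccn1 held 1, and Btg2 had the full TGACGTCA. Zfp36 had a CArG box alone, and Socs3 had neither in this window.

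Several of the list encode transcription factors. Fos, a subunit of AP-1, read 12.75, 12.76, 12.72 and 11.81 (normalized log2 signal) on F + LFD replicates 1 to 4 and 12.10, 12.32, 11.38 and 10.84 on F + HFD replicates 1 to 4. It was lower on the HFD array of every pair, while the groups overlapped because F + LFD replicate 4 was low (log2 fold change -0.85 ± 0.36 SE, limma p = 0.0451, exact permutation p = 0.0857, and p = 0.00383 with the block). Junb, another AP-1 subunit, read between 13.07 and 13.69 in F + LFD and between 12.68 and 12.99 in F + HFD. Its groups did not overlap (exact permutation p = 0.0286, two-sided, the smallest that 70 assignments allow), but its log2 fold change of -0.53 was just under the 1.5-fold threshold. Egr1, a zinc finger factor of the same early wave, read 10.68, 10.59, 10.47 and 9.62 in F + LFD and 9.82, 9.81, 8.97 and 9.25 in F + HFD, lower in all 4 pairs (-0.88 ± 0.29 SE, limma p = 0.0155, exact permutation p = 0.0857). Nr4a1, an orphan nuclear receptor, was lower in 3 of 4 pairs and was not a DEG with the block (-0.81 ± 0.31 SE, limma p = 0.029, exact permutation p = 0.0571).

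The other 4 DEGs of the list have various roles. Socs3, which shuts off signalling by interleukin-6 type cytokines through STAT3, read 10.09, 11.21, 10.95 and 10.95 in F + LFD and 10.05, 9.79, 9.73 and 9.95 in F + HFD. The diets did not overlap, although in pair 1 the difference was only 0.04 (-0.92 ± 0.24 SE, limma p = 0.00444, exact permutation p = 0.0286). Zfp36, which binds and destabilizes cytokine mRNAs, had means of 11.48 ± 0.13 in F + LFD and 10.87 ± 0.55 in F + HFD (SD, n = 4), with F + HFD replicate 1 far below the others. Btg2, an antiproliferative gene, had means of 11.26 ± 0.20 and 10.60 ± 0.46 without overlap. Ccn1, a secreted matrix protein of wound repair, was lower in 3 of 4 pairs (-0.95 ± 0.30 SE, limma p = 0.0127, exact permutation p = 0.0571, with the block p = 0.0339). Socs3, Egr1 and Ccn1 were DEGs without any 1 of the 8 arrays. Fos lost the call without 5 arrays (F + LFD replicates 1, 2 and 3 and F + HFD replicates 3 and 4, log2 fold change -0.77, -0.77, -0.78, -0.76 and -0.58), and Zfp36 without each F + LFD array or F + HFD replicate 1 (-0.63, -0.59, -0.55, -0.65 and -0.33). Nr4a1 lost it without F + LFD replicates 2 and 3 and F + HFD replicate 3 (-0.75, -0.64 and -0.55), and Btg2 without F + LFD replicates 1 and 2 and F + HFD replicate 4 (-0.61, -0.62 and -0.44).

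**Figure D2:**
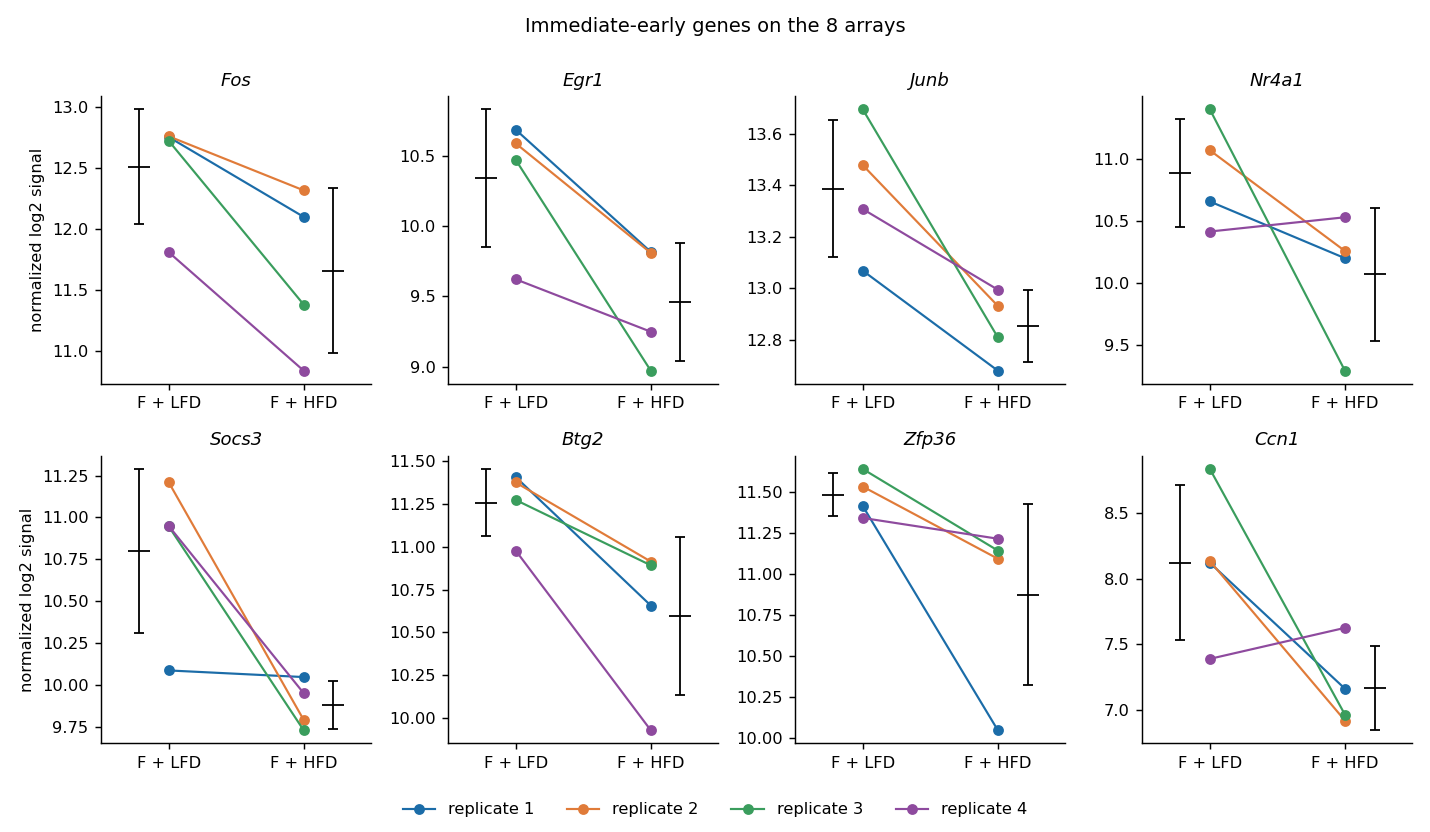
Normalized log2 signal of 8 immediate-early genes on the 8 arrays, with the same-numbered arrays joined by a line of its color, and the group mean ± SD (n = 4) as black bars at the sides. The vertical axes differ between panels. For Fos, Egr1, Junb, Socs3, Btg2 and Zfp36 all 4 lines run downward to F + HFD.

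Genes of inflammatory signalling were lower as well. Of 53 cytokine, chemokine and receptor genes tested, 44 had a lower mean in F + HFD (median log2 fold change -0.34), where 50.6% of all genes did. Of the 53, 3 were down-regulated DEGs, Ccl2 and Cxcl1 among them, and none was up-regulated, where 0.797% of all genes were down-regulated. With the block 10 were down-regulated, among them Ccl7, Cxcl5, Cxcr3, Il10ra, Il18r1, Il1b and Osm, where 1.68% of all genes were. These shares of all genes apply to the lists below too. Without F + LFD replicate 4 the median was -0.10, and it was -0.22 without F + LFD replicate 3 and -0.17 without F + HFD replicate 2. Ccl2, the chemokine that recruits monocytes through Ccr2, read 8.43, 7.60, 8.72 and 8.48 in F + LFD and 6.99, 6.03, 7.26 and 7.65 in F + HFD. It was lower in each pair by a log2 fold change of -1.32 ± 0.37 SE on average (limma p = 0.00684, with the block p = 0.00027), and the groups touched only because F + HFD replicate 4 lay just above F + LFD replicate 2 (exact permutation p = 0.0571). Ccl2 was a DEG under all 23 alternatives tried, and of the 31 DEGs followed through them only Nfkbiz and Mtus2 were so too.

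Other genes of chemokine and cytokine signalling gave dimmer signals. Ccr2, the receptor for Ccl2, differed by -1.38 ± 0.53 SE without overlap, but on F + HFD replicate 2 it was not well above background and read far below the other F + HFD arrays (2.30 against 4.48 to 4.76). Without F + LFD replicates 1, 3 or 4 its limma p was 0.0504, 0.0766 and 0.0603. Cxcl1, a neutrophil attractant, was well above background on 4 F + LFD arrays and on 1 F + HFD array (limma p = 0.0213, exact permutation p = 0.0571), so that its fold change rests on signals near background. It lost the call when F + HFD replicate 1 or 2 was left out, and with normexp background correction, where the log2 fold change was -0.30. Il1b, the pyrogenic interleukin, was lower in all 4 pairs (-0.83 ± 0.39 SE, limma p = 0.0629, exact permutation p = 0.114, with the block p = 0.0033). Tnf varied widely in F + HFD, between 4.81 and 8.75, and differed by -0.70 ± 0.81 SE (limma p = 0.412, exact permutation p = 0.514). The brightest Il6 probe passed the background limit on 0 F + LFD and 0 F + HFD arrays and was not tested.

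Nfkbiz, an inhibitor-like cofactor of NF-kappaB that is induced by interleukin-1 and microbial signals, read 9.61, 9.38, 9.33 and 9.52 in F + LFD and 8.34, 8.20, 8.81 and 9.21 in F + HFD, with no overlap (-0.82 ± 0.23 SE, limma p = 0.00613, exact permutation p = 0.0286). Vmp1, a membrane protein of autophagosome formation, had means of 13.18 ± 0.17 and 12.55 ± 0.18, again with no overlap (limma p = 0.00217, exact permutation p = 0.0286), and fell under the fold threshold when F + LFD replicate 1 (-0.55) or F + HFD replicate 2 (-0.57) was left out. Samd5 had means of 6.62 ± 0.41 and 5.62 ± 0.54. Nfkbiz, Vmp1 and Samd5 were named because their diets did not overlap, and this choice fixes the exact p. In all, 415 genes (1.88%) did not overlap between the diets, and F + HFD was lower in 156 (0.706%) and higher in 259 (1.17%).

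The score of T and NK cell genes was lower in every pair, with a wide spread between the arrays of a group. Of 25 T and NK cell genes, 23 had a lower mean in F + HFD (median -0.46), where 50.6% of all genes did. No member was a DEG, but with the block 9 were down-regulated (Ccl5, Cd5, Cd8a, Cd8b1, Cxcr6, Icos, Il2rb, Il7r and Zap70), where 1.68% of all genes were. HFD was lower in all 4 pairs for 11 of the 25, where it was for 6.88% of all genes. Cd8a and Cd8b1 were higher with HFD in pair 4. The array score of the list was lower on the HFD array of all 4 pairs, with differences of -0.53, -0.28, -0.71 and -0.31, while the arrays of a group spanned far more, from -0.45 to 0.85 in F + LFD. With single arrays left out the median ran from -0.76 (without F + LFD replicate 2) to -0.21 (without F + LFD replicate 4). Il7r, the interleukin-7 receptor of naive and memory T cells, shows the pattern with 9.35, 8.51, 10.69 and 10.84 in F + LFD and 8.56, 7.28, 9.80 and 9.64 in F + HFD. Replicates 3 and 4 were high on both diets, and HFD was lower by a similar amount in each pair (-1.03 ± 0.69 SE, limma p = 0.173, exact permutation p = 0.314, with the block p = 0.000365). Il2rb, a receptor chain for interleukins 2 and 15, and Ms4a4b, a T cell membrane protein, had log2 fold changes of -0.73 and -0.79 (block p = 0.00116 and 0.00188, exact permutation p = 0.286 and 0.171). Il7r, Il2rb and Ms4a4b were named for their small p with the block. In whole tissue, fewer cells of a type and less RNA per cell cannot be told apart.

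Macrophage and dendritic cell genes had a lower mean in 21 of 22 cases (median -0.42), and the HFD minus LFD score was -0.07, 0.03, -0.84 and -0.78 in pairs 1 to 4. The median came to -0.07 without F + LFD replicate 3, which carried the highest score of 1.27, and to -0.68 without F + LFD replicate 2. Ccr2 was the only DEG, with Fcgr3, an IgG receptor, and Mpeg1, a pore-forming protein of macrophages, in addition under the block (block p = 0.00507 and 0.0025, exact permutation p = 0.2 and 0.286). The 2 probes of Mpeg1 gave log2 fold changes of -0.68 and -0.02. Adam8, a protease of myeloid cells, was lower in all 4 pairs (-0.91, block p = 0.00122, exact permutation p = 0.143). Of 12 MHC class II genes 8 were lower, without a DEG in either fit (median -0.38, from -0.67 without F + LFD replicate 2 to -0.12 without F + LFD replicate 3), and Cd74, the invariant chain, had a log2 fold change of -0.53 (block p = 0.00655, exact permutation p = 0.429, below 1.5-fold). B and plasma cell genes split 11 higher to 9 lower, with score differences of 1.52, 0.29, -0.19 and -1.39 in pairs 1 to 4. Jchain, which links IgA dimers, did not overlap between the diets, with means of 14.71 ± 0.35 in F + LFD and 14.15 ± 0.17 in F + HFD (log2 fold change -0.56, under 1.5-fold). None of the 24 immunoglobulin genes listed was matched to a probe, and they have no values here.

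Interferon-stimulated genes were lower in 35 of 39 cases (median -0.37) with no DEG, and 2 (Igtp and Iigp1) under the block. They did not move one way within pairs, the HFD minus LFD score being -0.66 and -1.15 in pairs 1 and 3 and 0.57 and 0.44 in pairs 2 and 4. Without F + HFD replicate 3 the median was 0.15. MHC class I genes were lower in 19 of 21 cases (median -0.25) without a DEG. The median was -0.15, -0.14 and -0.49 without F + HFD replicates 1, 3 and 4. H2-K1, a classical class I heavy chain, had a log2 fold change of -0.43.

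Antimicrobial and Reg family genes were lower in 20 of 23 cases (median -0.53), with the score lower in all 4 pairs. Without F + HFD replicate 3 the median was -0.19. Saa3, an acute phase protein induced by bacteria, was the only DEG, with 9.08, 8.41, 8.999 and 10.43 in F + LFD and 7.09, 7.82, 5.18 and 8.97 in F + HFD (-1.96 ± 0.77 SE, limma p = 0.0331, exact permutation p = 0.0571). It lost the call without F + LFD replicates 1, 3 or 4 or F + HFD replicates 1 or 3, at limma p from 0.0516 to 0.0871. Under the block Nos2, the inducible nitric oxide synthase (-1.46), Duoxa2, the maturation factor of dual oxidase 2 (-0.76), Mmp7, a matrix protease that also activates defensins (-1.96), and Saa1 were DEGs as well. Mmp7 read 7.13, 5.81, 6.74 and 11.36 in F + LFD and 5.21, 6.04, 4.74 and 7.22 in F + HFD. It was higher with HFD in pair 2, and without F + LFD replicate 4 its log2 fold change was -0.76. The transmembrane mucin Muc20 was a down-regulated DEG (-1.03 ± 0.41 SE, limma p = 0.034, exact permutation p = 0.114), and lost the call without F + LFD replicates 3 or 4 or F + HFD replicates 1 or 3 (limma p from 0.0768 to 0.0896). Muc1 was a DEG with the block alone (-0.89, block p = 0.0162, exact permutation p = 0.171). Of 23 goblet cell genes none was a DEG, and Muc2, the gel-forming mucin of the colon, had means of 16.93 ± 0.13 and 16.89 ± 0.37. A second probe of Muc2 gave a log2 fold change of 0.26, of the opposite sign.

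**Figure D3:**
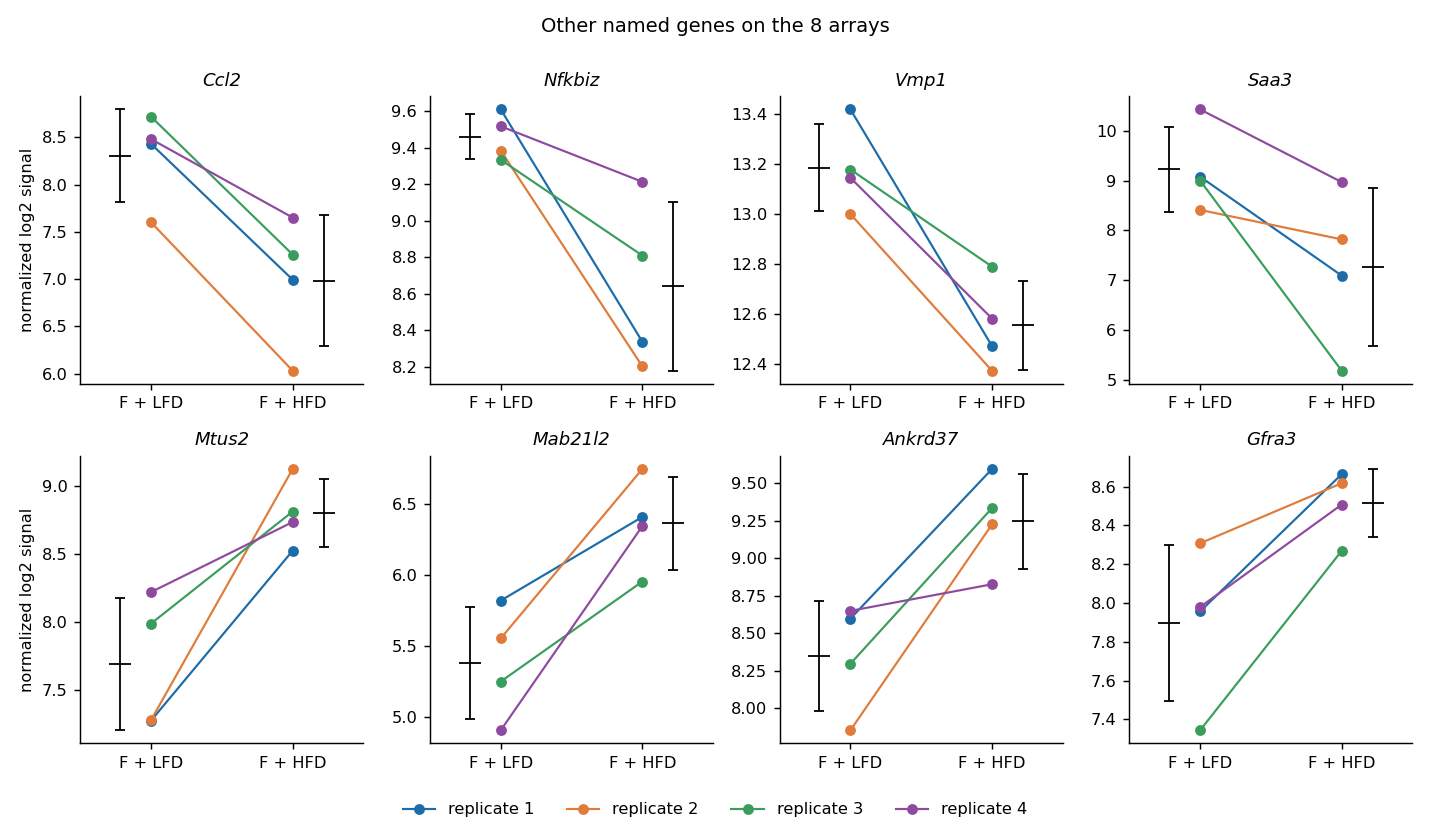
Normalized log2 signal of 8 other named genes on the 8 arrays, drawn as in the plot of immediate-early genes. All 4 lines run downward for Ccl2, Nfkbiz, Vmp1 and Saa3, and upward for Mtus2, Mab21l2, Ankrd37 and Gfra3.

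Genes of the muscle layer and of the enteric nervous system were higher in F + HFD on average. All 19 smooth muscle genes tested had a higher mean (median log2 fold change 0.50), and so had all 19 enteric neuron genes (0.47), where 49.4% of all genes did. The DEGs among them were few: Phox2a in the neurons, none in smooth muscle, and Hspb6, a small heat shock protein of muscle, under the block. In both lists pair 3 ran the other way. The HFD score of smooth muscle was higher by 0.38, 0.87 and 0.85 in pairs 1, 2 and 4, and the difference was -0.42 in pair 3, where the LFD array had the highest muscle score of all 8 (0.91). Without F + LFD replicate 3 the muscle median was 0.88, and without F + LFD replicate 4, which had the lowest score, it was 0.24. The neuron median ran from 0.29 without F + HFD replicate 1 to 0.91 without F + LFD replicate 3. Tpm2, a muscle tropomyosin, and Smtn, the contractile protein smoothelin, differed by 0.68 ± 0.43 SE and 0.50 ± 0.36 SE (limma p = 0.146 and 0.196, exact permutation p = 0.229 and 0.257). A second probe of Tpm2 gave 0.19. Phox2a, a transcription factor of autonomic neurons, was higher in all 4 pairs (0.89 ± 0.33 SE, limma p = 0.0261, exact permutation p = 0.0571), with p from 0.0538 to 0.0715 without F + LFD replicates 1, 2 or 4 or F + HFD replicates 1, 2 or 3.

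Of the genes of GDNF family signalling and enteric glia, 11 of 13 tested were higher (median 0.38, and 0.18 without F + LFD replicate 2), with 2 DEGs. The study had already named Gfra3 from this series, so its call here is no independent evidence. Gfra3, the receptor for the neurotrophic factor artemin, read 7.96, 8.31, 7.34 and 7.98 in F + LFD and 8.66, 8.62, 8.27 and 8.51 in F + HFD. It was higher in every pair (0.62 ± 0.21 SE, limma p = 0.0181, exact permutation p = 0.0571), and lay under 1.5-fold in 3 cases, 0.43 with F + LFD replicate 3 left out and 0.57 and 0.58 with F + HFD replicates 1 and 2 left out. S100b, a calcium-binding glial marker, was higher in 3 of 4 pairs (1.004 ± 0.43 SE, limma p = 0.0468, exact permutation p = 0.114) and lost the call without any array but F + LFD replicate 3 and F + HFD replicate 4. Its pair 3 again ran the other way.

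Enteroendocrine genes were higher in 17 of 20 cases (median 0.34). Their score was higher on the HFD array of all 4 pairs, by 0.34, 0.30, 0.44 and 0.35, an even shift next to that of muscle. The median was 0.08 without F + LFD replicate 3. No member was a DEG, and under the block Ghrl, which encodes ghrelin, and Sst, which encodes somatostatin, were up-regulated (log2 fold changes 0.71 and 0.62, block p = 0.0153 and 0.0175, exact permutation p = 0.0571 and 0.229). Insl5, a hormone of colonic L cells, read 11.26, 12.14, 10.66 and 11.90 in F + LFD and 12.22, 12.24, 12.30 and 11.93 in F + HFD (limma p = 0.0552, exact permutation p = 0.0571).

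**Figure D4:**
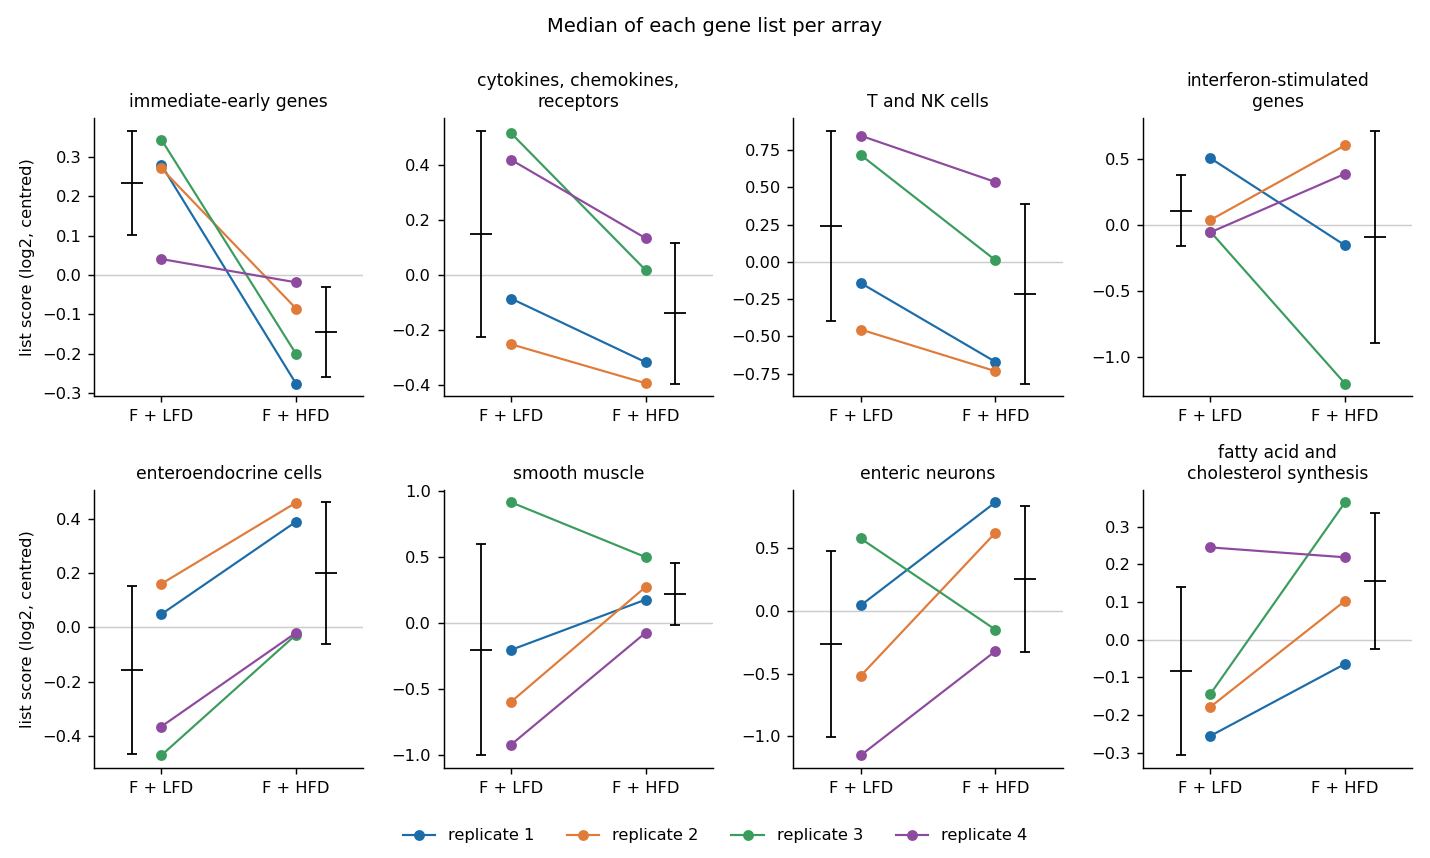
Score of 8 gene lists on each array, the median of the members after each gene was centred on the 8 arrays (log2), with same-numbered arrays joined and the group mean ± SD (n = 4) as black bars. All 4 lines run downward for immediate-early genes, cytokines and T and NK cells and upward for enteroendocrine cells, while pair 3 runs against the others for smooth muscle and enteric neurons.

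The up-regulated DEGs that did not overlap between the diets did not belong to the lists, Ankrd37 excepted. They were named because they did not overlap, so their exact permutation p of 0.0286 follows from that choice. Mtus2, a microtubule-associated protein, read 7.27, 7.28, 7.99 and 8.22 in F + LFD and 8.52, 9.12, 8.81 and 8.73 in F + HFD (1.11 ± 0.25 SE, limma p = 0.00205, exact permutation p = 0.0286). Mab21l2, a developmental gene, had means of 5.38 ± 0.39 and 6.36 ± 0.33 (SD, n = 4, limma p = 0.00301, exact permutation p = 0.0286). Ankrd37, a target of hypoxia-inducible factor, had means of 8.35 ± 0.37 and 9.24 ± 0.32 (limma p = 0.00399, exact permutation p = 0.0286), while the 30 hypoxia and glycolysis genes as a list had a median of 0.03 (0.18 with 75th percentile scaling). Zfp982, Tceal5, Fam183b, Dpy19l4 and the phospholipase Plcb1 were higher by log2 fold changes between 0.64 and 0.89, all without overlap. Dpy19l4, Fam183b and Plcb1 came under 1.5-fold without F + HFD replicate 2 (0.49, 0.57 and 0.53), and Plcb1 also without F + LFD replicate 4 (0.56). Of the 31 DEGs followed through the alternatives, 13 kept the call without any 1 of the 8 arrays.

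Genes of lipid handling differed little. The 34 fatty acid and cholesterol synthesis genes were higher in 27 cases with a median of 0.20 and no DEG in either fit. Cyp51 and Lss, enzymes of the sterol pathway, had log2 fold changes of 0.50 ± 0.19 SE and 0.52 ± 0.20 SE and were higher in all 4 pairs (limma p = 0.026 and 0.0319, exact permutation p = 0.0571 and 0.0286). Over the 3 probes of Lss the log2 fold change ran from 0.05 to 0.56. Of 42 PPAR target and fatty acid oxidation genes 23 were higher and 19 lower, with a median of 0.05 and no DEG. Cpt1a, the entry enzyme of mitochondrial fat oxidation, and Slc25a20, the carnitine carrier, differed by -0.41 ± 0.17 SE and -0.48 ± 0.20 SE (limma p = 0.0408 and 0.0441, exact permutation p = 0.114 and 0.0857). Thrsp, a regulator of lipogenesis, differed by 0.05 ± 0.28 SE. Adipocyte genes had a median of 0.07, and Lpl, lipoprotein lipase, differed by -0.35 without overlap. The bile acid receptor Gpbar1 and the mineralocorticoid receptor Nr3c2 did not overlap between the diets either, at 0.58 and 0.48. Lists of colonocyte transport, xenobiotic metabolism, steroid receptors, circadian clock and colon position had medians between -0.02 and 0.03. A median near 0 does not exclude members that changed in opposite directions. Log2 fold changes ran from -0.74 to 1.51 for colon position, -1.19 to 1.03 for steroid receptors and -0.28 to 0.64 for the clock. With the block Hoxd13 and Cry1 were up-regulated and Slc9a3 of colonocyte transport was down-regulated. Esrra read 8.96 on F + HFD replicate 2 and between 13.15 and 13.45 on the other 7 arrays. Of 30 Wnt target and tumor genes none was a DEG, and Myc was lower in all 4 pairs (-0.60, block p = 0.037, exact permutation p = 0.0571).

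**Figure D5:**
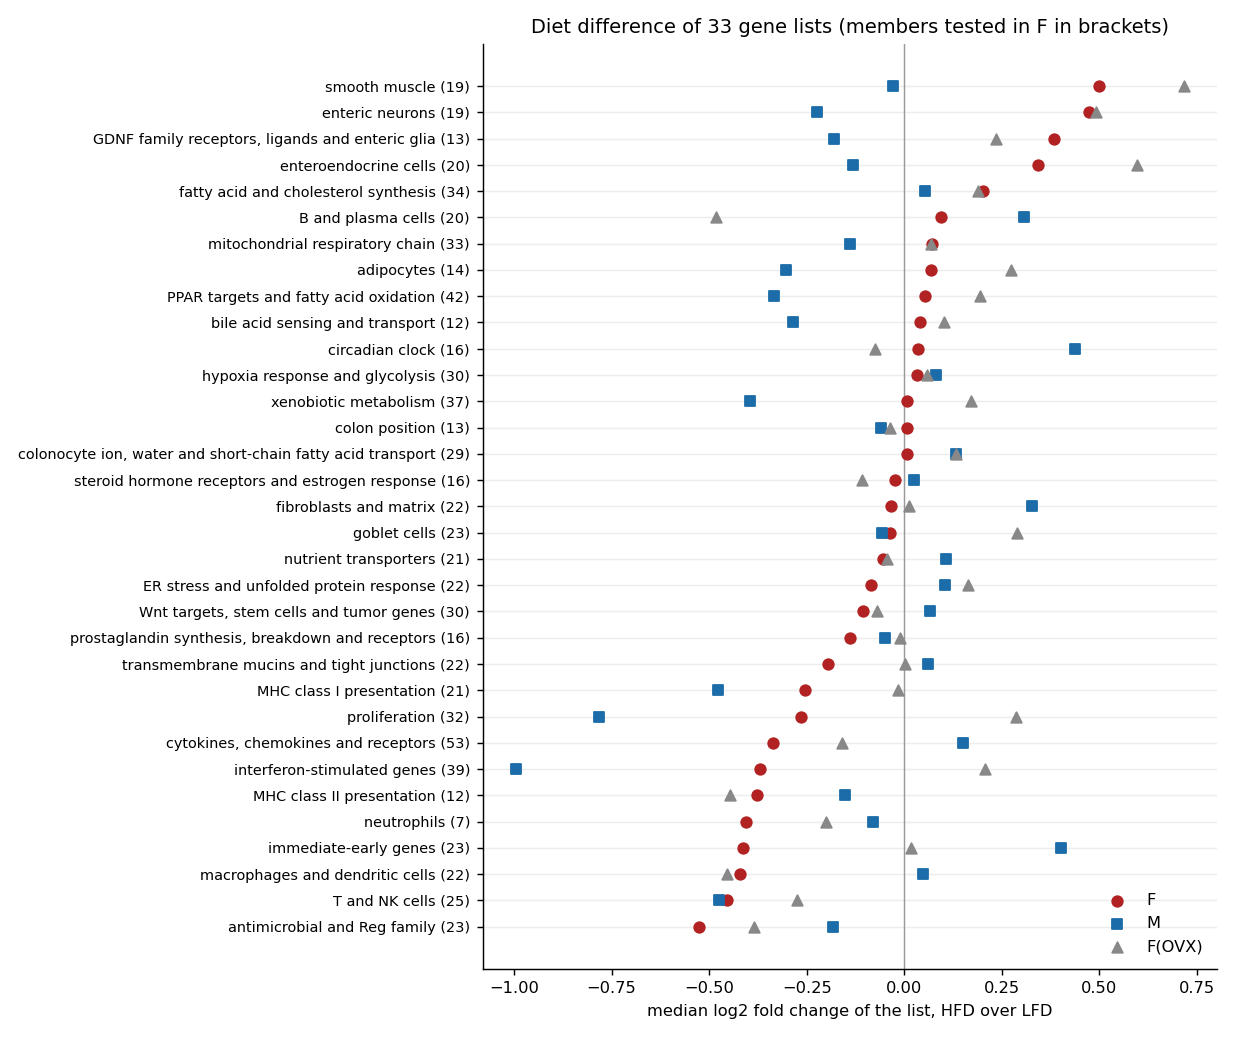
Median log2 fold change of HFD over LFD for each gene list, in F (red circles), M (blue squares) and F(OVX) (grey triangles), each from its own 8 arrays, with the number of members tested in F in brackets. Immediate-early genes lie at -0.41 in F, 0.40 in M and 0.02 in F(OVX), and smooth muscle at 0.50, -0.03 and 0.72. The members tested can differ in M and F(OVX).

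The diet effect in F was set against that in males (M) and in ovariectomized females (F(OVX)), which had the same AOM, DSS and diets. In a fit of all 24 arrays the effect in F differed from that in M at 1.5-fold and an unadjusted limma p under 0.05 for 657 of 22383 genes (2.94%), and from that in F(OVX) for 330 (1.47%). None passed adjustment in limma, and 782 (3.49%) and 465 (2.08%) had an unadjusted p under 0.05. With the replicate block the counts were 1147 and 541. Against M the count was 1110 and 419 without F + LFD replicates 2 and 4 and 409 and 1233 without F + HFD replicates 2 and 3, and against F(OVX) it was 191, 497 and 520 without F + HFD replicates 2, 3 and 4. The arrays of each of F, M and F(OVX) lay on a slide of their own, so that slide and sex or surgery cannot be told apart, while each diet difference was taken within a slide. The F effect was lower than the M effect for 1.85% and higher for 1.08% of all genes at that threshold, and lower than the F(OVX) effect for 0.755% and higher for 0.719%. Among immediate-early genes it was lower than in M for 10 of 23 (43.5%) and higher for none. They were Atf3, Btg2, Ccn1, Egr1, Fosb, Ier2, Junb, Nr4a1, Rhob and Zfp36, and the median difference of the list was -0.94. The study chose Junb and Rhob as hub genes from the male arrays of this comparison, so that these 2 are no independent evidence of it. Egr1 differed by -1.84 between F and M (limma, adjusted p = 0.976) and by -1.65 between F and F(OVX) (limma, adjusted p = 1), and Ccn1 by -1.35 and -1.29.

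Outside that list, Vmp1 was lower with HFD in F and higher in M (log2 fold change -0.63 and 0.65), a difference of -1.28 (limma, adjusted p = 0.976). Mtus2 was higher with HFD in F and had negative values in M and F(OVX) (-0.61 and -0.34), with differences of 1.72 and 1.45. Zfp982 differed by 2.04 between F and F(OVX) (limma, adjusted p = 1). Gfra3 was higher in all 3, at 0.62, 0.34 and 0.83. The study had reported it from this series as up-regulated in both F and F(OVX), so their agreement is no independent evidence. Of the 264 DEGs of F, 188 were tested in M and 90 of these (47.9%) had the same sign there, against 51.5% of all genes, 7 being DEGs of the same direction and 5 of the opposite. In F(OVX) 157 were tested and 93 (59.2%) had the same sign, against 52.9% of all genes, with 12 DEGs of the same and 2 of the opposite direction. Smooth muscle, neurons and enteroendocrine genes had positive medians in F(OVX) too (0.72, 0.49 and 0.60). In M the median was near 0 for smooth muscle (-0.03) and negative for neurons and enteroendocrine genes (-0.22 and -0.13). The members tested can differ between groups, for neurons 19 in F, 11 in M and 11 in F(OVX). For no list was the difference between these medians tested.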

How the data were processed

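The 8 arrays of F + LFD and F + HFD were analyzed, 4 a diet, grouped by the sample labels. The labels and files give 4 arrays a group, and the methods of the study name 5 animals, so that nothing ties an array to an animal beyond its label. RNA was labelled with Cy3 and put on 1-color Agilent mouse arrays, and the submitters' processing notes name Feature Extraction, version 11.0.1.1. What the authors deposited are linear spot intensities from which background had been subtracted array by array, with flags for outlier, saturated and well above background spots.

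Control and outlier spots were not used. The log2 intensities were averaged per probe and quantile-normalized over the 24 arrays, and the brightest probe stood for each gene. The files name probes by accession, and RefSeq accessions (GRCm38.p6) gave 32994 of 56605 probes a symbol. Genes whose probe exceeded background on the 4 arrays of at least 1 diet were tested. The tests were linear models with moderated variances (limma 3.58.1, R 4.3.3), at the study's thresholds of 1.5-fold and an unadjusted p under 0.05, beside Benjamini-Hochberg values. P-values measure the spread between samples that the labels call separate. Single genes were also compared by exact permutation (70 assignments, two-sided). Errors of fold changes are moderated standard errors. The number of arrays limits the precision.

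Deviations from the group means correlated at r = 0.25, 0.39, 0.51 and 0.23 between same-numbered arrays and from -0.55 to 0.37 between others. F + LFD replicate 4, for example, went more with F + HFD replicate 3 (0.36) than with replicate 4. These values do not establish that the numbers pair the arrays. The blocked values assume such pairs, and are given where they change a call. On simulated data of 22075 genes with 100 changed 2-fold and 100 changed 4-fold, limma called 92% and 97% of them without the block, 95% and 100% with it, and 83% and 96% for F minus M. After adjustment 41% and 79%, 33% and 74%, and 41% and 74% passed. The data for the blocked fit had a deviation shared by same-numbered arrays built in. Those for the other fits did not, so these shares cannot say whether the block helps. The noise was drawn for each gene on its own, while genes vary together on the real arrays. The shares may therefore not hold for these data.

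The members, the 36 gene lists and the rules were chosen with earlier results of these data known. Genes named are those of the paper, up to 10 non-overlapping DEGs in each direction with the largest change (7 qualified downward), the smallest p of each list and of the blocked fit, and list members that were DEGs. For the genes chosen as non-overlapping the exact permutation p was fixed by the choice. Fos, Nr4a1, Il1b, Sst, the other genes named as DEGs of a list and the small RNAs were named after their values were seen. Alternatives changed the normalization, background correction, filter, probe choice, test, block and arrays. Some genes that these rules select are not reported here.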

Additional observations from a re-analysis of the deposited data

Results flagged for a closer look

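Of 138 groups of 4 values for genes and 70 for lists, 8 held 1 array that lay far from the other 3 by Dixon's criterion, which chance meets in about 1 of 20 groups. Muc2 read 16.34 on F + HFD replicate 3 and between 17.00 and 17.12 on the other F + HFD arrays. Fos read 11.81 on F + LFD replicate 4, against 12.72 to 12.76. Zfp36 read 10.05 on F + HFD replicate 1, against 11.09 to 11.21. On F + HFD replicate 2, the dimmest array, Ccr2 read 2.30 and Esrra 8.96, against at least 4.48 and 13.15 on the other 3. Myc read 7.82 on F + HFD replicate 4, against 9.01 to 9.22. Mcm7, a subunit of the replicative helicase, read 11.54 on F + HFD replicate 1, against 11.94 to 12.01. The score of interferon-stimulated genes was 0.51 on F + LFD replicate 1, against 0.04 or less on the other F + LFD arrays.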

How the results depend on the processing

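The counts depended on the processing. The list medians were judged by another measure, the spread between replicates, so counts and lists cannot be ranked against each other. The 264 DEGs (88 up, 176 down) became 588 (216 up, 372 down) with the replicate block, 82 (17 up, 65 down) with normexp background correction, 156 (76 down) with genes required above background on all 8 arrays, 629 (272 up, 357 down) with no filter, 125 (49 up, 76 down) by the methods' t-test and 521 (203 up, 318 down) with array weights. The up-regulated share was 33.3% at first, 20.7% with normexp, 51.3% with the filter on all 8 arrays and 43.2% with no filter. Without single arrays the count ran from 148 to 650 (up 46 to 297, down 95 to 406). With the block and without replicates 1, 2, 3 and 4 it was 671, 724, 1138 and 667 (up 243, 251, 557 and 249, down 428, 473, 581 and 418). Of the differences in diet effect, the 657 genes between F and M became 1147 with the block, 1056 with no filter and 409 to 1233 without single arrays, and the 330 between F and F(OVX) became 541, 815 and 191 to 520, and 151 with normexp. Muc2 (-0.03) turned to 0.44 with 75th percentile scaling, 0.11 with the mean of probes, 0.0302 with array weights and 0.10 with the block without replicate 3, and ran from -0.11 to 0.15 without single arrays. Thrsp (0.05) turned to -0.0676 and -0.0835 with the block without replicates 1 and 2, and ran from -0.0782 to 0.283 without single arrays. The cause of these changes was not tested. Of the list medians recomputed, 517 moved by less than the spread between replicates and 8 by more. With 75th percentile scaling these were the respiratory chain (0.34), hypoxia (0.18), ER stress (0.10) and transmembrane mucins and tight junctions (-0.02), with normexp and with the filter on all 8 arrays prostaglandin genes (-0.04 in both), without F + LFD replicate 4 Wnt targets (0.06) and without F + HFD replicate 4 MHC class I (-0.49). The spread was wide for some lists, 1.37 for B and plasma cells, so a median could change sign and still count among the 517. That of interferon-stimulated genes ran from -0.53 to 0.15 and counted there. The medians were not recomputed with the block, the methods' t-test or array weights. The number of arrays and the signal over background limit what can be called.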

Other observations

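Probes for small structural RNAs were brighter in F + HFD. The list (snoRNAs, small Cajal body RNAs, spliceosomal RNAs, 7S RNAs and the RNA parts of RNase P and MRP) was written after its values were seen. All 25 tested had a higher mean in F + HFD, with a median log2 fold change of 0.76. Snora74a was a DEG (log2 fold change 1.04), and 18 of the 25 were up-regulated with the replicate block, where 0.978% of all genes were. Rnu1a1, a U1 RNA gene, had means of 13.63 ± 0.33 and 14.34 ± 0.63 (SD, n = 4), and Rmrp had means of 9.68 ± 0.39 and 10.34 ± 0.67. Members such as the U1 genes are near-identical in sequence, so their probes share targets. The HFD score of the list was higher by 1.06, 1.06, 0.14 and 0.60 in pairs 1 to 4. The pairs with the shift of 1.06 were those in which the HFD array was dimmest relative to its LFD array, with signal ratios of 0.583 and 0.439 against 0.846 and 0.906. Whether this has a part in the other differences was not tested.

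Ptk6, a kinase of differentiating gut epithelium, was well above background on all 4 F + LFD arrays and on no F + HFD array, where it was at least 1.08-fold brighter in F + LFD (limma p = 0.0355, exact permutation p = 0.0857). The call was lost without F + LFD replicates 1 or 2 or F + HFD replicates 2 or 3.

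The study picked 10 hub genes from genes that were lower with HFD in males. In F all 10 had a lower mean with HFD on their brightest probe (median -0.40) and none was a DEG in either fit. A second probe of Helz2 gave 0.60 against -0.42. Proliferation genes were lower in 23 of 32 cases (median -0.26) without a DEG. Their median ran from -0.50 without F + HFD replicate 4 to -0.12 without F + HFD replicate 3, and their score was higher with HFD by 0.41 in pair 4. The mitochondrial respiratory chain was higher in 27 of 33 cases with a median of 0.07, and of 0.34 with 75th percentile scaling.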
